A study of Mus musculus with 6 samples.

Results

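The 57 genes described here encode developmental transcription factors outside the Hox clusters, and DNA methylation around them was measured in CD8+ T cells of mice. They were taken from a list of genes of the Pax, LIM homeobox, sine oculis-related (Six2, Six3, and Six6), Nkx, Dlx, T-box, Sox, Gata, Fox and basic helix-loop-helix families, with further homeobox genes and Wt1, out of 21911 protein-coding genes. Their members were the CpGs inside the gene and 5 kb to either side of it (build mm10) that had 5 or more reads in all 6 libraries. There were 5777 such CpGs of 1192344 in the whole genome. Of these, 3108 lay in CpG islands (CGIs), 1507 in shores, which are the 2 kb to either side of a CGI, and 1162 outside both. The level of a gene in 1 of these classes was the mean share of methylated reads over its CpGs, and a gene needed 3 CpGs of the class. That left 56 genes with CGI values (all but Pax8, which had no covered CGI CpG), 54 with shore values (all but Lhx8, Sox1, and Neurog2) and 44 with values outside both. The windows of Dlx1 and Dlx2 shared 6 CpGs.

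The 6 libraries came from 3 genotypes on the background labelled C57BL/6N (C57BL/6NCrl in the methods of the study), with 2 libraries of each. WT mice carried no transgene, hSTAT5B mice (labelled hSTAT5B +/T) carried human STAT5B, and hSTAT5BN642H mice (labelled hSTAT5B N642H +/T) carried the human gene with the N642H mutation, which is found in leukemia and lymphoma. Both transgenes were driven by the Vav1 promoter, which is active in all hematopoietic cells, and each came from 1 selected line. The CD8+ T cells were enriched from lymph nodes (LNs) with magnetic beads, and the mice were 13 weeks old and, for hSTAT5BN642H, diseased. Reduced representation bisulfite sequencing (RRBS) reads CpGs near MspI sites, so that CGIs are covered better than the rest of the genome. A level in a mix of cells is a share of reads, and partial methylation in every cell cannot be told apart from full methylation in some cells.

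Genes of this kind lay down the body plan. Pax6 is needed for the eye, Nkx2-1 for thyroid and lung, Gata4 and Tbx5 for the heart, Foxa2 for endoderm and liver, Wt1 for kidney and gonad, Olig2 for oligodendrocytes and motor neurons, and Sox2 for pluripotent cells and neural progenitors. Blood cells do not use most of them. Many are known as targets of Polycomb group proteins, whose PRC2 complex methylates lysine 27 of histone H3, and such genes are often surrounded by wide regions of low DNA methylation. Whether the STAT5B transgenes went with altered methylation at these genes is the question put to the comparison of genotypes.

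Short stretches of the mouse reference genome show what was read. They are given on the plus strand of GRCm38 from 5′ to 3′, are 160 bases long, contain no annotated untranslated sequence, and carry the CpGs covered in all 6 libraries in capitals. Within each region, the stretch with the most covered CpGs was taken, the ends of the Tbr1 island were picked by their levels, and the genes were picked with their levels known, so that the levels below illustrate and test nothing. The first is from the shore before En1, which encodes a homeobox factor of the midbrain and hindbrain. The second lies upstream of Lhx5, a LIM homeobox gene of the forebrain, in a region that is no CGI. The third is an unmethylated end and the fourth a methylated end of the same CGI, downstream of the T-box gene Tbr1. The fifth is the end of an intron of Wt1 and the coding exon that follows it, more than 2 kb from any CGI.
En1, shore, chr1:120602164-120602323: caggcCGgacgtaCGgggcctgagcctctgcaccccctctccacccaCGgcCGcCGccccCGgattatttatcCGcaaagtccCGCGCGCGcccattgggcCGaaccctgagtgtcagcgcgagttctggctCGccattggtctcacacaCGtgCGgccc
Lhx5, outside CGIs and shores, chr5:120427868-120428027: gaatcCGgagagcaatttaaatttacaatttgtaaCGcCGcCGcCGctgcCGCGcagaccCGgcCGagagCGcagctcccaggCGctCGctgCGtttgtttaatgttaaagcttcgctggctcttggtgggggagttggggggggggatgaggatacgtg
Tbr1, CGI, first end, chr2:61815296-61815455: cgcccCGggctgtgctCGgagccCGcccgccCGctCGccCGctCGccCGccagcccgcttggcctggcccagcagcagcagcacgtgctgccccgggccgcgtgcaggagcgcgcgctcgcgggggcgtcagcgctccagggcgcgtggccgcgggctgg
Tbr1, CGI, last end, chr2:61816059-61816218: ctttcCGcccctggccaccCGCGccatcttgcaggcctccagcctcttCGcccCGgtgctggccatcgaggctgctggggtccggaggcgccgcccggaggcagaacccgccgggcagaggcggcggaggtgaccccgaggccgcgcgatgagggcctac
Wt1, outside CGIs and shores, chr2:105169828-105169987: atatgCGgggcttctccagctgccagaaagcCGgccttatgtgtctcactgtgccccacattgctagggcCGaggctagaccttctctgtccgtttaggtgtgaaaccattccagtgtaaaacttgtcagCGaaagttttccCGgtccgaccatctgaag

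The 15 capital CpGs of the En1 stretch were methylated at 4.05% and 5.44% in the WT libraries, 4.42% and 6.49% in the hSTAT5B libraries, and 10.5% and 6.83% in the hSTAT5BN642H libraries. The 13 CpGs of the Lhx5 stretch, whose first base lies at -3831 bp from the start of the gene, in an intron of the long noncoding gene Gm27199, had 2.85% and 6.82% in WT, 2.26% and 4.09% in hSTAT5B, and 4.26% and 5.94% in hSTAT5BN642H. The stretch thus showed levels as low as those of a CGI although it lies more than 2 kb from one. The 5 CpGs of the Wt1 stretch, 3 in the intron and 2 in the coding exon (from chr2:105169926), had 85.7% and 92.2% in WT, 87.8% and 90.6% in hSTAT5B, and 92.1% and 89.3% in hSTAT5BN642H. The 2 ends of the Tbr1 CGI are described with the CGIs.

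In all 6 libraries, low methylation around these genes reached far beyond the CGIs. The median level outside CGIs and shores was 20.9% and 22.1% in the WT libraries over 44 of the 57 genes, whereas it was 90.4% and 91.0% over all 16850 genes measured. In shores, the median was 10.5% and 10.9% in WT over 54 of the genes, against 30.2% and 30.7% over all 9204 genes. Inside CGIs the order was the other way around. The median over 56 genes was 5.34% and 5.87% in WT, against 2.17% and 2.18% over all 12567 genes. With CpGs of the gene body alone, the median outside CGIs and shores in WT was 40.6% over 26 of the genes, against 91.6% over all genes.

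The distance from the nearest CGI showed how far the low methylation reached. Within CGIs, the mean level of the genes' CpGs in WT was 5.90%, close to the 6.05% over CpGs of all protein-coding genes. At 500 to 1000 bp from a CGI, it was 12.1% over 411 CpGs, whereas it was 46.7% over all genes. At 1 to 2 kb, the values were 12.9% and 68.5%. At 3 to 5 kb, 405 CpGs of 40 of the genes had a mean of 17.2%, whereas CpGs of all genes had 78.8%, and the medians were 9.29% and 94.7%. The levels came together only farther out. At 5 to 10 kb, the mean was 31.1% against 82.1%, at 10 to 20 kb it was 57.4% against 84.5%, and at 20 kb or more it was 80.4% against 86.5%. The CpGs at 20 kb or more came from 10 of the genes and those at 10 to 20 kb from 14, so that the far end of the profile rests on the long genes.

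**Figure D1:**
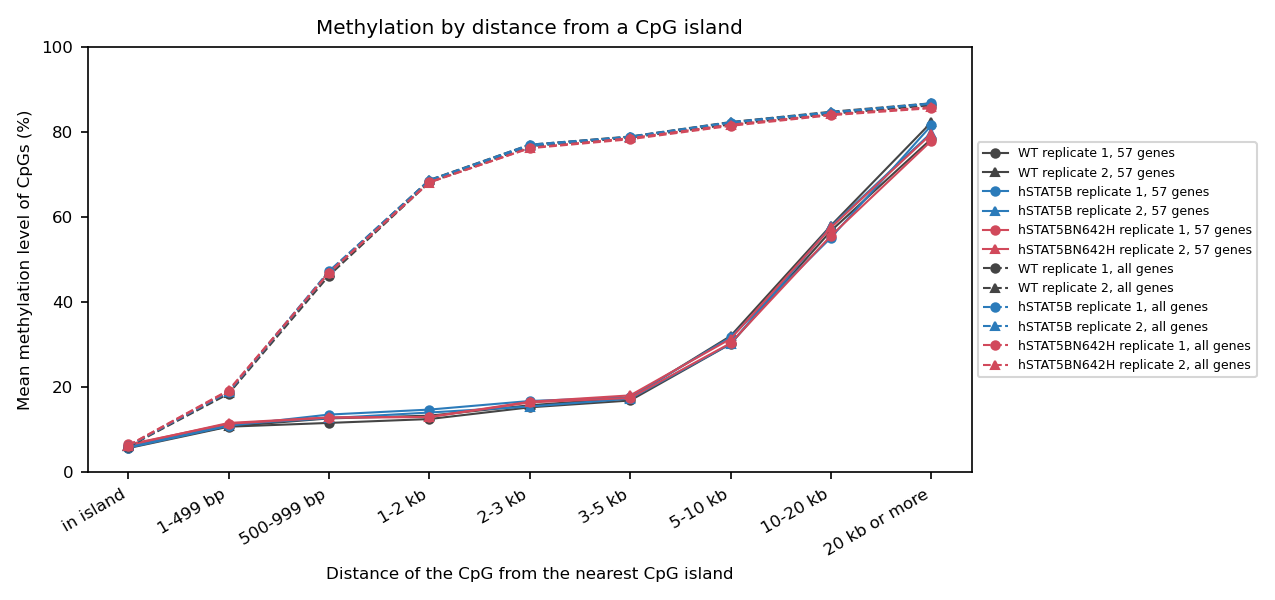
Mean methylation level of CpGs (y axis, %) by distance from the nearest CpG island (x axis) in each of the 6 libraries, for the 57 genes (solid lines) and for all protein-coding genes, which include them (dashed lines). The solid lines stay under 20% out to 5 kb, where the dashed lines are near 79%, and the 6 libraries lie close together.

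Around the transcription start, the same was seen in genes with a CGI within 500 bp of the start. The values are means of the genes' own means. From 3500 to 3000 bp before the start, the WT level was 10.6% over 11 of the genes (41 CpGs). It was 72.9% over 1074 other such protein-coding genes with a CpG in that stretch, the listed T cell factors left out. In the first 500 bp after the start it was 5.6% over 34 of the genes (451 CpGs), against 4.08%. From 3000 to 3500 bp after the start it was 14.9% against 74.0%.

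Single CpGs had low or intermediate levels more often than full methylation. In WT, 78.6% of the genes' CGI CpGs were under 10% methylated, 20.7% were between 10% and 40%, and 0.708% were at 40% or more. For CGI CpGs of all protein-coding genes, those shares were 87.4%, 8.49%, and 4.08%. In shores, 60.1% of the CpGs were under 10%, 35.4% between 10% and 40%, and 4.51% at 40% or more, compared with 46.8%, 16.8%, and 36.5% over all genes. Outside CGIs and shores, 22.0% of the CpGs were at 80% or more, against 80.5% over all genes.

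**Figure D2:**
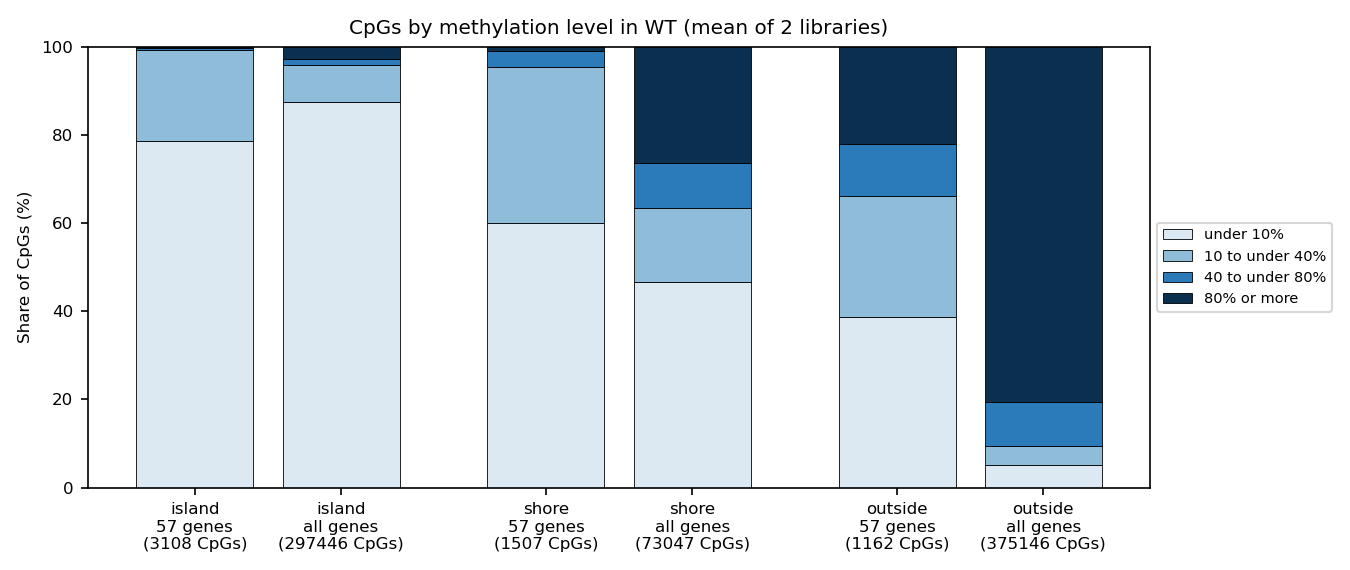
Share of CpGs (y axis, %) in 4 bands of methylation level in WT, the mean of 2 libraries, for CpG islands, shores and sequence outside both, in the 57 genes and in all protein-coding genes. The band of 80% or more, 80.5% of CpGs outside islands and shores in all genes, is 22.0% there in the 57 genes, and the band from 10% to under 40% is wider in the 57 genes in each class.

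Sequence features that were not used to choose the genes also set them apart in number. Each of the 57 gene windows held at least 1 CGI, against 13858 of all 21911 genes, and the median was 3 CGIs, with up to 8 at Tbx2, a T-box repressor of heart and limb. The median share of a window covered by CGIs was 10.1%, whereas it was 2.06% in genes that have a CGI. The windows were also shorter, with a median of 18078 bp against 34344.5 bp. They held a median of 2284 bp of CGIs, against 801 bp. Promoter sequences were on hand from RefSeq (GRCm38) for 40 of the 57 genes. Their median GC content was 62.3% and their median ratio of observed to expected CpGs was 0.738, close to the 62% and 0.769 of genes with a CGI.

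The genes' CGIs fell into 147 separate islands with 3 or more covered CpGs. In WT, 145 of them were under 20% methylated, 25 of them between 10% and 20%, and 2 at 20% or more. Among all 13403 CGIs, 4.19% were between 10% and 20%, 10.01% were at 20% or more, and 6.02% at 80% or more. The 50 CGIs that span a start of one of the genes had a median of 4.38%, against 1.95% for 9549 CGIs at starts of protein-coding genes. The other 97 had 6.05%, against 5.63% for 3854 other CGIs, so that the medians lay farther apart at the starts. They do not show that the higher level was confined to starts, since CGIs at 20% or more were rarer among these genes.

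Both CGIs at 20% or more belonged to T-box genes. Tbr1, a factor of glutamatergic neurons of the cortex, has a CGI of 925 bp downstream of its last exon (chr2:61815282-61816206), with 19 covered CpGs. Its level was 29.9% and 30.1% in WT, 33.4% and 29.6% in hSTAT5B, and 25.6% and 25.03% in hSTAT5BN642H. The hSTAT5BN642H libraries were both below the other 4, by 4.63 percentage points from the WT mean, but the adjusted p was 0.85 with limma over 13403 CGIs. The level was not even along the island. The 8 CpGs of the first end shown above had 0% and 2.5% in WT, and the next 6, which begin 240 bp farther on, had 16.7% and 18.7%. The last 5 CpGs, another 256 bp on, had 93.5% and 87.9% in WT, 91.7% and 91.5% in hSTAT5B, and 76.5% and 74.0% in hSTAT5BN642H. A boundary between unmethylated and methylated sequence was thus inside this CGI in every library. Within this island, the lower values of hSTAT5BN642H were at the methylated end, where 100 to 230 reads per library were counted. This split of the CGI was made after its values were seen and was given no test. A CGI over an exon of Tbr1 (chr2:61805054-61805900, 13 CpGs) had 11.3% and 18.2% in WT, 10.4% and 7.63% in hSTAT5B, and 8.12% and 6.87% in hSTAT5BN642H, where both hSTAT5BN642H libraries and both hSTAT5B libraries were below WT (limma adjusted p 0.870 for hSTAT5BN642H). It too was named after its values were seen.

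**Figure D3:**
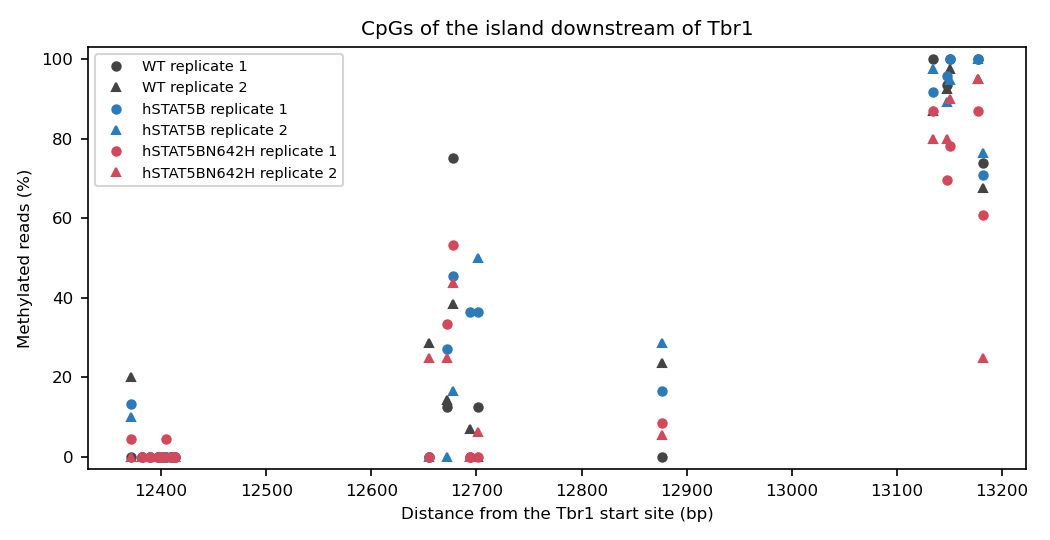
Share of methylated reads (y axis, %) at each of the 19 covered CpGs of the island downstream of Tbr1, by distance from the Tbr1 start site (x axis, bp), with 1 symbol per library. CpGs at the left end are near 0, and the last 5 CpGs average 90.7% in WT and 75.3% in hSTAT5BN642H.

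Tbx4, a factor of the hindlimb and lung bud, has a short CGI of 216 bp at an annotated start (chr11:85886388-85886603), with 6 covered CpGs. Its level was 27.2% and 20.4% in WT, 26.8% and 27.2% in hSTAT5B, and 24.4% and 29.6% in hSTAT5BN642H. The 3 genotypes overlapped, and only 100 to 167 reads per library stood behind each value. Another CGI, in an intron of Tbx5 (chr5:119866909-119867127), had a single covered CpG, with 30.4% and 38.1% in WT on 15 to 23 reads, which is too little to compare genotypes.

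Gene by gene, CGI levels in WT ran from 0.884% at Dlx1, a factor of forebrain interneurons, to 23.8% at Tbx4, and 52 of 56 genes were under 10%. The 10 genes with 10% or more in some library were Pax1, Lhx3, Nkx2-5, Dlx5, Tbr1, Tbx4, Tbx5, Foxd3, Otx2, and Neurog1. Tbx5 reached 10% only in hSTAT5BN642H replicate 2, and only with its single intron CpG included. Pax1, a factor of the vertebral column, had 17.8% and 11.9% in WT, 9.03% and 7.33% in hSTAT5B, and 18.98% and 18.7% in hSTAT5BN642H over 14 CpGs. Both hSTAT5B libraries were thus below WT and both hSTAT5BN642H libraries above it. The adjusted p was 0.879 for hSTAT5B and 0.965 for hSTAT5BN642H against WT with limma. Otx2, a factor of the forebrain and eye, had 10.8% and 11.3% in WT, 5.89% and 14.9% in hSTAT5B, and 9.61% and 8.61% in hSTAT5BN642H. Nkx2-5, a cardiac homeobox gene, had 7.06% and 7.89% in WT, 10.98% and 11.4% in hSTAT5B, and 11.5% and 6.43% in hSTAT5BN642H. Neurog1, a proneural gene, spread from 3.35% to 12.95% between the 2 WT libraries alone.

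**Figure D4:**
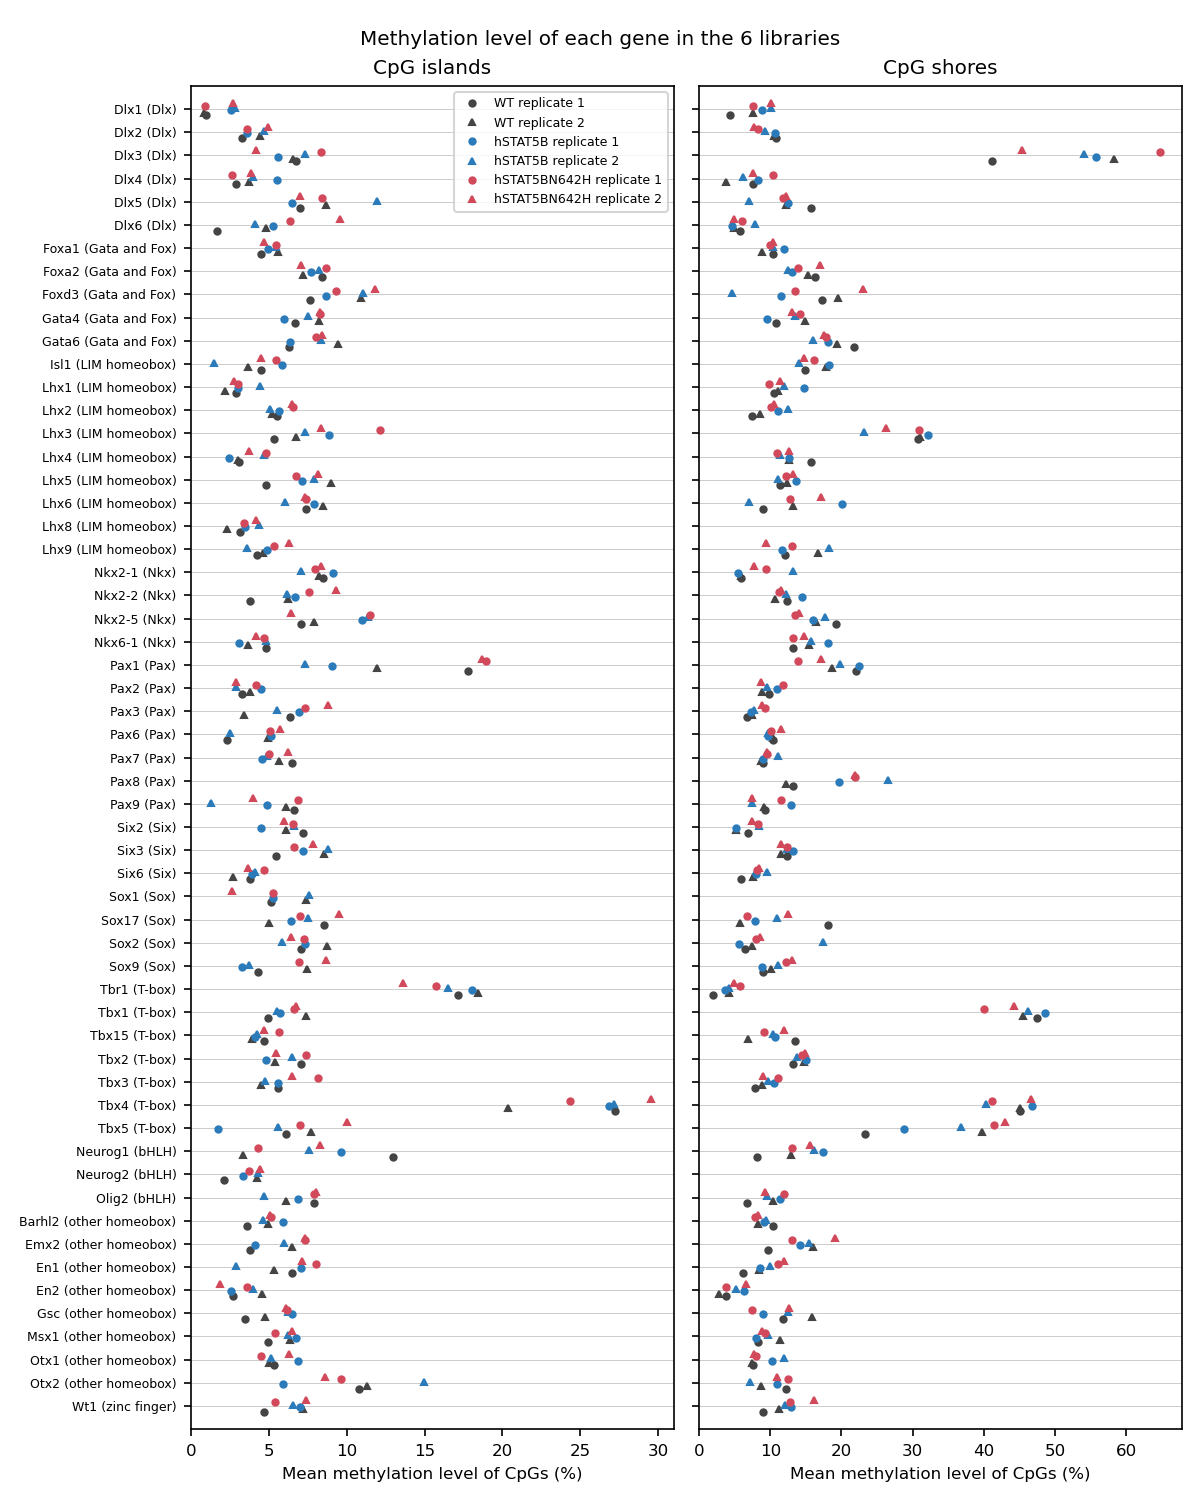
Mean methylation level of CpGs (x axis, %) in CpG islands (left) and shores (right) of each gene (y axis, with its family), 1 symbol per library, for genes with 3 or more CpGs of the class. Most genes lie under 10% in islands and under 20% in shores, and Dlx3, Tbx1, Tbx4, Tbx5 and Lhx3 stand out to the right in shores.

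Genes named for their roles were low in CGIs. Pax6 had 2.29% and 4.94% in WT, Wt1 4.68% and 7.22%, Olig2 7.92% and 6.12%, Sox2 7.08% and 8.71%, Gata4 6.70% and 8.25%, Foxa2 8.43% and 7.20%, and Nkx2-1 8.48% and 8.21%. Tbx5 had 6.09% and 7.70% in WT, 1.76% and 5.60% in hSTAT5B, and 7.01% and 10.003% in hSTAT5BN642H over 10 CpGs. These include the single CpG of its intron CGI, on 15 to 23 reads. The other 9, in a CGI over an exon, had 3.39% and 4.32% in WT, 0% and 2.52% in hSTAT5B, and 3.44% and 3.92% in hSTAT5BN642H. In these 8 genes, hSTAT5BN642H differed from WT by -1.04 (Sox2) to 1.79 (Pax6) percentage points. In the shores of Pax6, 76 CpGs had 10.4% and 10.4% in WT, 9.64% and 9.70% in hSTAT5B, and 10.04% and 11.5% in hSTAT5BN642H. The shores of Foxa2, over 28 CpGs, had 16.3% and 15.4% in WT, 13.1% and 12.6% in hSTAT5B, and 13.9% and 17% in hSTAT5BN642H, and those of Gata4 lay between 9.51% and 14.8% in the 6 libraries. Olig2 shores, over 20 CpGs, had 6.69% and 10.3% in WT and 11.9% and 9.20% in hSTAT5BN642H. The shore values of Nkx2-1 and Sox2 rest on 6 and 3 CpGs.

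By family, the median CGI level in WT lay between 3.58% for the 6 Dlx genes, which pattern jaws, limbs and forebrain, and 7.82% for the 5 Gata and Fox genes, which act in endoderm, heart and neural crest. The LIM homeobox genes, which specify motor neurons and interneurons, had 4.41% over 9 genes, the Pax genes 5.48% over 6, the other homeobox genes 5.15% over 8, the Nkx genes 6.25% over 4, the T-box genes 6.22% over 7, the Sox genes 6.51% over 4, and the sine oculis-related genes, which act in eye and kidney, 6.65% over 3. Each family's median was thus above the 2.16% over all genes, with the lowest single gene in the Dlx family.

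Shores varied more than CGIs. Among genes with 10 or more shore CpGs, the lowest in WT were Tbr1 with 1.98% and 4.23%, En2 with 3.81% and 2.79%, and Dlx6 with 5.81% and 4.91%. Highest were Tbx1, a gene of the pharyngeal arches and outflow tract, with 47.5% and 45.5% over 21 CpGs, Tbx5 with 23.3% and 39.8% over 11 CpGs, and Gata6, a gene of endoderm and heart, with 21.8% and 19.3% over 40 CpGs. No gene of the 54 reached 50% in WT shores, whereas 33.0% of all genes did. Dlx3, with 41.2% and 58.2% over 9 CpGs, and Tbx4, with 45.2% and 45.1% over 9 CpGs, came close. Tbr1 thus had the lowest shores of the 54 genes although its CGIs were among the most methylated.

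Outside CGIs and shores, 9 of 44 genes were at 50% or more in WT, namely Pax2, Pax7, Pax8, Pax9, Lhx4, Lhx9, Dlx3, Gata6, and Wt1, whereas 93.1% of all genes were. Pax8, a gene of thyroid and kidney, had 85.5% and 94.8%, Lhx4, a pituitary factor, had 79.3% and 81.1%, and Wt1 had 70.7% and 72.2%. At the other end, En1 (3 CpGs), En2, Lhx5, and Sox1 had under 10%, with 5.41% and 8.70% over 32 CpGs in Lhx5. Under 10% were 0.831% of all genes. Pax6 had 16.2% and 13.8% over 18 CpGs and Olig2 9.25% and 11.1% over 37 CpGs.

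Other gene lists did not show the same mix of values. T cell transcription factors, in 24 of 26 genes, had a median of 81.0% and 81.5% outside CGIs and shores in WT, Polycomb and H3K27 demethylase genes had 93.5% and 93.2%, and housekeeping genes had 94.1% and 91.8%. Their CGI medians in the 2 WT libraries lay between 1.61% and 2.27%. The values outside CGIs and shores are not matched for distance from a CGI. The median window was 96405 bp for T cell factors, 38271 bp for Polycomb genes, and 26883 bp for housekeeping genes. For the developmental genes it was 18078 bp. In shores, T cell transcription factors had 14.4% and 12.5% in WT, close to the developmental genes, whereas Polycomb genes had 36.2% and 38.8% and housekeeping genes had 25.2% and 24.8%. Of the T cell factors that belong to the same families, Gata3 had CGI levels of 21.1% to 25.4% in the 6 libraries and shores of 7.18% to 10.9%. Eomes, a T-box gene, had 1.54% to 3.43% in CGIs and 5.02% to 8.51% in shores. Tbx21, the T-box gene of effector cells, had 8.61% to 16.8% in CGIs over 6 CpGs. Sox4, Foxo1, and Foxp1 had 1.05% to 3.14% in CGIs. In shores, Sox4 had 2.03% to 5.73%, whereas Foxo1 (8 CpGs) had 31.1% to 35.9% and Foxp1 31.8% to 40.5%. Foxp3 had no covered CGI CpG and 1 shore CpG.

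The labelled cell type was checked outside CGIs, since genes in use are often less methylated there. The 8 genes of CD8+ T cells had library medians of 43.3% to 59.9%, whereas 4 B cell genes had 81.1% to 84.2% and 5 myeloid genes 89.3% to 92.0%. The lists overlapped, however. Of the CD8+ T cell genes, Cd3e had 85.2% to 91.6%, Cd3g 76.5% to 84.0%, and Cd5 65.1% to 72.6% in the 6 libraries. The B cell gene Cd79b had 24.2% to 40.1%, and the myeloid gene Spi1 had 49.0% to 55.0%. Of the CD4 T cell genes, Cd4 had 89.3% to 96.1% in the 6 libraries and Zbtb7b, which is also on the list of T cell transcription factors, had 23.5% to 32.2%. In hSTAT5BN642H, 7 of the 8 CD8+ T cell genes had a lower mean than in WT, as had 10461 of all 16850 genes. Their median difference was -4.34 points, against -0.644 over all genes, and 4 of the 8 differed by 5 points or more, against 10.4%. Cd8b1 had 45.6% and 44.7% in WT, 26.0% and 27.6% in hSTAT5B, and 15.4% and 15.3% in hSTAT5BN642H over 7 CpGs (limma adjusted p 0.438 for hSTAT5BN642H against WT). Cd8a had 57.5% and 22.1% in the 2 WT libraries. The part of this in the differences below was not tested. Total reads on CpGs were 43291086 to 67007186 per library. The developmental genes' CpGs had a median of 17 to 33 reads per library.

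Between genotypes, none of the 57 genes passed the test in any class. With limma and Benjamini-Hochberg adjustment, 0 of 56 genes in CGIs, 0 of 54 in shores, and 0 of 44 outside both had an adjusted p under 0.05 in hSTAT5BN642H against WT, in hSTAT5B against WT, or in hSTAT5BN642H against hSTAT5B. The share called among all genes was 0.0% in each class and comparison. At an unadjusted p under 0.05, limma gave 1 of 56, 3 of 54, and 2 of 44 genes in hSTAT5BN642H against WT, and 701, 742, and 1422 of all genes tested in CGIs, shores, and outside both. A quasi-binomial model called 0 of these genes and 4, 7, and 168 of all genes in the same comparison. With 2 libraries per genotype, limma found 40% of gene CGIs that had been altered by 10 percentage points in simulated data and 80% of those altered by 20 points. The quasi-binomial model found 81.5% and 96%, with 17 and 27 false calls. The altered CGIs were drawn from all 12567 genes, so that these shares are not those of the 56 genes. The median WT level was 2.16% over all genes and 5.93% over the 56, with 24 and 48 CpGs. Low levels were only raised in the simulated data, so that falls at genes such as Tbr1 or Sox1 were not simulated. Differences under 10 points, as most were here, were not simulated either.

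The differences were small. In CGIs, the median over genes was 5.34% and 5.87% in WT, 5.78% and 5.55% in hSTAT5B, and 6.61% and 6.47% in hSTAT5BN642H. Both hSTAT5BN642H libraries were thus above the other 4 in this median, by 0.684 percentage points from WT in the median gene, whereas the median over all genes differed by 0.127. For 41 of 56 genes the hSTAT5BN642H mean was above WT, as it was for 6929 of all 12567 genes, and for 18 of 56 both hSTAT5BN642H libraries were above both WT libraries, against 21.5% of all genes. For 2 of 56 both were below, against 14.6% of all genes. None of the 56 CGI values differed by 5 points or more, against 3.37% of all genes, and 45 differed by 2 points or less. Shares of 5 points or more in CGIs, here and for hSTAT5B, are not of like genes. The 56 genes had a median of 48 CGI CpGs, against 24 over all genes. The 2 WT libraries differed by a median of 1.34 points over the genes, and the hSTAT5BN642H and WT means by 0.936 points. These are unlike measures, since means of 2 libraries vary less than single libraries. Both are absolute values and take no account of direction.

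In hSTAT5B, the median CGI difference from WT was 0.154 points, with 31 genes above and 25 below WT (6481 and 6020 of all 12567 genes), and it was -0.064 with 10 reads per CpG and -0.103 without WT replicate 1. Both libraries were above WT in 8 of 56 genes, against 17.8% of all genes, and below in 5, against 15.3%. Only Pax1 differed by 5 points or more, against 2.82% of all genes. Between hSTAT5BN642H and hSTAT5B, the median CGI difference was 0.348 points.

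Shores gave similar values. The median over genes was 10.5% and 10.9% in WT, 11.4% and 11.2% in hSTAT5B, and 11.6% and 11.7% in hSTAT5BN642H. Both transgenic genotypes were above WT, by a median of 0.624 points in hSTAT5BN642H and 0.848 points in hSTAT5B, whereas all genes differed by 0.122 and 0.160. These comparisons share the WT libraries. Both hSTAT5BN642H libraries were above WT in 17 of 54 genes, against 21.1% of all genes, and below in 6, against 18.0%. Both hSTAT5B libraries were above WT in 15 of 54, against 17.5%, and below in 4, against 14.9%. Differences of 5 points or more were seen in 3 of 54 genes in hSTAT5BN642H (Pax8, Dlx3, and Tbx5), against 18.3% of all genes, and in 4 in hSTAT5B (Pax8, Dlx3, Foxd3, and Neurog1), against 15.2%. These shares are not of like genes. The 54 genes had a median of 21.5 shore CpGs, against 8 over all genes, and a median WT level of 10.6%, against 30.6%.

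Outside CGIs and shores, the median was 22.9% and 22.4% in hSTAT5B and 23.5% and 20.7% in hSTAT5BN642H, which overlapped with WT. Both hSTAT5BN642H libraries were below WT in 7 of 44 genes, against 28.9% of all genes, and above in 5, against 12.9%. For hSTAT5B, these were 8, against 15.6%, and 6, against 18.2%. The median difference in hSTAT5BN642H was 0.320 points, while over all genes it was -0.644 points. Its direction turned with the processing, to -0.102 with 10 reads per CpG, -0.683 with 5 reads in the library itself, -0.443 with pooled reads, -0.414 in gene bodies alone, and -0.811 without hSTAT5BN642H replicate 2. Differences of 5 points or more were seen in 4 of 44 genes in hSTAT5BN642H (Pax9, Dlx6, Foxa1, and Isl1), against 10.4% of all genes, and in 5 in hSTAT5B, against 7.8%. Here too the genes differ from all genes in CpG number, with a median of 20.5 against 14, and in level.

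**Figure D5:**
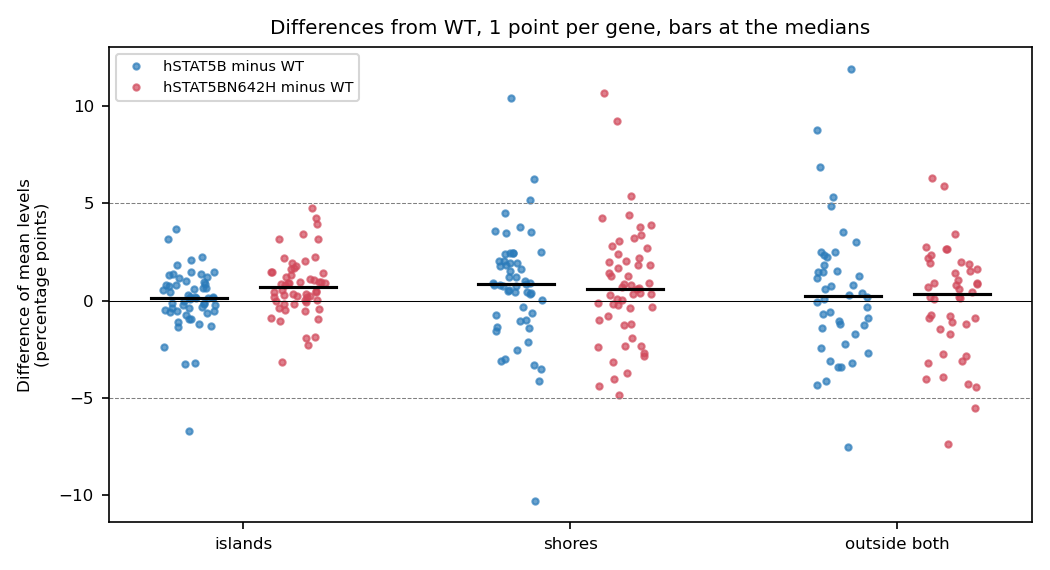
Difference of the mean methylation level from WT (y axis, percentage points) in hSTAT5B (blue) and hSTAT5BN642H (red) for islands, shores and sequence outside both, 1 point per gene with 3 or more CpGs, black bars at the medians, dashed lines at 5 points. Most points lie within 5 points of 0, and the medians are 0.684 in islands, 0.624 in shores and 0.320 outside both for hSTAT5BN642H.

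The widest CGI differences above WT among genes with 10 or more CGI CpGs were at Dlx6, Lhx3, Pax1, and Nkx2-2. Dlx6 had 1.66% and 4.78% in WT, 5.26% and 4.11% in hSTAT5B, and 6.37% and 9.60% in hSTAT5BN642H over 13 CpGs. Of these, 3 lay in a CGI upstream of the start (chr6:6862726-6862995), on 46 to 112 reads. That CGI had 2.08% and 13.1% in WT, 13.6% and 11.2% in hSTAT5B, and 16.1% and 27.9% in hSTAT5BN642H. The other Dlx6 CGIs differed between hSTAT5BN642H and WT by 1.39 and 2.07 points. Lhx3, which acts in pituitary and motor neurons, had 5.33% and 6.72% in WT, 8.85% and 7.34% in hSTAT5B, and 12.2% and 8.36% in hSTAT5BN642H over 41 CpGs. Nkx2-2, a gene of the ventral neural tube and pancreas, had 3.801% and 6.25% in WT and 7.57% and 9.32% in hSTAT5BN642H over 52 CpGs. In each of these 3 genes both hSTAT5BN642H libraries were above both WT libraries. The limma adjusted p was 0.874 for Dlx6, 0.869 for Lhx3, and 0.879 for Nkx2-2.

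The widest CGI differences below WT were at Tbr1, Sox1, Otx2, and Neurog1. Over its 45 CGI CpGs, Tbr1 had 17.1% and 18.5% in WT, 18.0% and 16.5% in hSTAT5B, and 15.7% and 13.6% in hSTAT5BN642H. Its unadjusted p was 0.035 and its adjusted p 0.869 with limma, at a log2 ratio of -1.14 ± 0.43 (SE). The log2 ratio pools reads over CpGs of unlike depth, so that its size is not that of the change in these mean levels. Sox1, a neural progenitor gene, had 5.11% and 7.38% in WT and 5.25% and 2.64% in hSTAT5BN642H, which overlapped. The same was true of Neurog1. Otx2, with its levels given above, differed from WT by -1.94 points in the mean level. Its log2 ratio in limma was 0.34 ± 0.54 (SE), in the other direction (limma adjusted p 0.956).

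In shores with 10 or more CpGs, the widest differences above WT were at Tbx5, Wt1, En1, and Dlx4. Tbx5 had 23.3% and 39.8% in WT, 28.7% and 36.8% in hSTAT5B, and 41.4% and 43.0% in hSTAT5BN642H. The gap between the 2 WT libraries was wider than the difference of the means, which was 10.7 points. Wt1 had 8.96% and 11.2% in WT, 12.9% and 12.0% in hSTAT5B, and 12.7% and 16.2% in hSTAT5BN642H, and En1 had 6.22% and 8.35% in WT, 8.58% and 10.03% in hSTAT5B, and 11.1% and 12.0% in hSTAT5BN642H over 56 CpGs. In Wt1 and En1, the libraries of both transgenic genotypes were above both WT libraries. Adjusted p values against WT in limma were 0.812 for Tbx5, 0.895 for Wt1, and 0.780 for En1 in hSTAT5BN642H. Dlx4 had 7.52% and 3.70% in WT and 10.4% and 7.54% in hSTAT5BN642H.

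The widest shore differences below WT were at Tbx1, Nkx2-5, Gsc, and Lhx9. Tbx1 had 40.02% and 44.2% in hSTAT5BN642H, below its WT values, and 48.6% and 46.2% in hSTAT5B. Nkx2-5 had 19.2% and 16.5% in WT, 16.0% and 17.6% in hSTAT5B, and 13.5% and 14.1% in hSTAT5BN642H. Gsc, the goosecoid gene of the organizer, had 11.7% and 15.8% in WT and 7.48% and 12.7% in hSTAT5BN642H, and Lhx9, a gonad gene, had 12.1% and 16.8% in WT and 13.1% and 9.45% in hSTAT5BN642H, with overlapping libraries. Among shores with fewer CpGs, Pax8 had 13.1% and 12.2% in WT, 19.6% and 26.6% in hSTAT5B, and 21.9% and 21.9% in hSTAT5BN642H over 7 CpGs. The adjusted p in limma was 0.856 for hSTAT5B and 0.667 for hSTAT5BN642H. Pax8 was singled out after its values were seen. The lowest adjusted p of any of the genes in limma was 0.459, for Dlx3 outside CGIs and shores, with 53.8% and 53.9% in WT, 50.7% and 54.2% in hSTAT5B, and 51.0% and 48.7% in hSTAT5BN642H over 9 CpGs.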

How the data were processed

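RRBS libraries of CD8+ T cells from LNs were compared, 2 each from WT, hSTAT5B, and hSTAT5BN642H mice. The labels do not say that libraries of 1 genotype came from separate mice. The p values weigh differences against the spread between libraries, which may not be a spread between mice. The authors used Trimmomatic for trimming and BSMAP, in its RRBS mode, for alignment to GRCm38 (versions not given in the sources used here). The deposited files give, for each CpG, methylated and total reads, with no normalization, and a score, which the authors made from the same reads and which was used only to check them.

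CGIs were called on soft-masked GRCm38 (length over 200 bp, GC over 50%, observed to expected CpGs over 0.6), which gave 16191. Genes were those of GENCODE M21. Levels are unweighted means over CpGs with 5 or more reads in all 6 libraries. Tests used limma 3.58.1 (R 4.3.3) on log2((methylated reads + 1)/(unmethylated reads + 1)) of each gene and class, and of each single CGI, with 3 or more CpGs, with all 6 libraries in 1 model and adjustment over all features. A log ratio pools reads and can differ in sign from the mean level. The limma fit was tested on simulated reads for gene CGIs of hSTAT5BN642H against WT, the one class and comparison simulated, where it also called 2 and 4 unaltered gene CGIs beside those altered by 10 and 20 points.

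The genes, the lists, and the rule for named genes were chosen with earlier results of these data known. Named were genes with a CGI level of 10% or more in a library, the 4 widest differences from WT in each direction in CGIs and shores with 10 or more CpGs, the 3 lowest and highest shores, 8 genes named for their roles, and CGIs at 20% or more in WT. Alternatives were 10 reads per CpG, 5 reads in the library itself, 10 CpGs, an offset of 0.5, the unweighted mean level, a mean-variance trend, only the genotypes compared, a replicate block, a quasi-binomial model, gene bodies alone, 1 kb shores, and leaving out each library. Other data of the study were not analysed here.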

Additional observations from a re-analysis of the deposited data

How the results depend on the processing

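The median WT level of the developmental genes in shores and outside both was below that of all genes under 10 reads per CpG, 5 reads in the library itself, pooled reads, and gene bodies alone. The WT medians of the developmental genes were 5.48% in CGIs with 10 reads per CpG, 10.97% in shores with 5 reads in the library itself, and 10.02% in shores of 1 kb. Outside both, they were 20.1%, 19.6%, and 40.6% with 10 reads, 5 reads in the library itself, and gene bodies alone. These alternatives for levels, other than the 1 kb shores, were chosen after seeing the data.

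Counts of calls over all genes or CGIs were 0 with limma and in 175 of 189 alternatives, including each left-out library (0 to 0). The quasi-binomial model called 4, 1, and 2 gene CGIs, 168, 2, and 137 genes outside both, and 31, 2, and 9 single CGIs, for hSTAT5BN642H against WT, hSTAT5B against WT, and hSTAT5BN642H against hSTAT5B, and 7 gene shores in the first of these. In shores of hSTAT5BN642H against WT, the unweighted mean level gave 2 and the mean-variance trend 4 calls. The trend gave 1 call outside both in hSTAT5BN642H and 1 in hSTAT5B against WT. The cause was not tested.

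In CGIs, the genes' median difference of hSTAT5BN642H against hSTAT5B moved from 0.348 to 0.517 with 10 reads, 0.501 with 5 reads in the library itself, 0.542 with pooled reads, and 0.686 in gene bodies, and ran from -0.0059 to 0.623 with a library left out, the lowest without hSTAT5B replicate 1. In CGIs of hSTAT5B against WT, the range with a library left out was -0.103 to 0.447, the lowest being the only one below 0, and in those of hSTAT5BN642H against WT it was 0.429 to 0.813. In shores of hSTAT5BN642H against WT, the median was 0.389 with 5 reads in the library itself and 1.22 with pooled reads. In shores of hSTAT5B against WT, it was 0.560 and 0.598 with 10 reads and with 5 reads in the library itself, and 0.622 to 1.19 with a library left out. Between hSTAT5BN642H and hSTAT5B, the shore median of -0.079 was 0.171, 0.324, 0.111, and -0.280 under the 10-read, own-library, pooled-read, and gene-body settings, and -0.434 to 0.116 with a library left out, so that its sign was not settled. Outside both, hSTAT5B against WT (0.248) ran from -0.207 without hSTAT5B replicate 1 to 1.18 without WT replicate 2, and hSTAT5BN642H against WT (0.320) from -0.811 to 0.447, so that neither had a settled sign. Of 594 alternatives for single named genes, 508 moved the difference by less than the spread between replicates, and 104 had the other sign.

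Same-numbered libraries did not deviate together, with correlations of -0.025 to 0.021, and the fit with a replicate block gave 0 calls in every class. Depth limits the values, since a CpG had a median of 17 to 33 reads per library, several named shores rest on fewer than 10 CpGs, and RRBS reads only CpGs near MspI sites.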
